A study of Rattus norvegicus with 66 samples.

Results

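The comparison described here is that of XX (female) rat pups whose dams received the high dose of bisphenol A (BPA5) with XX control pups. Its members were chosen by the group and sex in the library names: 4 BPA5 libraries and 11 control libraries, or 15 of the 66 libraries of the series. The 2 libraries named CONF N4-3x were summed as 1 control pup. This left 4 BPA5 pups and 10 control pups from 14 litters, 1 pup per litter. All were Long Evans rats killed on postnatal day 6, and the RNA came from the dorsal hippocampus together with some laterally adjacent cortex. BPA5 dams were given a nominal 5 mg of bisphenol A per kg body weight per day in a soy-free chow. The dose rests on an assumed food intake. Exposure ran from 2 weeks before mating through pregnancy and lactation until postnatal day 6. The controls were 5 pups of dams given the same chow without compound (CONF) and 5 pups of dams injected subcutaneously with vehicle (CONSC), given as saline in the sample labels and as DMSO in the study's methods. The study combined both control sets, and the same was done here. The pups received the compound only through the dam, and their own intake was not measured in these data.

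Bisphenol A is a synthetic monomer of polycarbonate plastics that binds oestrogen receptors, more weakly than oestradiol does, and the oestrogen-related receptor gamma more tightly. In the first postnatal week the hippocampus responds to locally made and circulating steroids, its granule cells are still being born, its interneurons are settling, and GABA shifts from depolarising to hyperpolarising as the chloride exporter KCC2 comes to outweigh the importer NKCC1. The genes below were therefore ordered by role: neuropeptides, other leading genes, choroid plexus markers, receptors, developmental transcription factors, interneuron markers and synaptic genes.

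Total counts ran from 13474428 to 30742709 in the BPA5 libraries, with pup 79-4x lowest, and from 15405133 to 33399641 in the control libraries. The entry that holds Xist had 9601 to 26239 counts in BPA5 pups and 7566 to 39309 in XX controls, against 0 to 28 in males, and the Y-linked Kdm5d was at 0 in every female. Control pup CONSC 9-1x stood apart: the summed level of 7 hippocampal identity genes was 150.8 counts per 1000000 counts of the library (CPM) there and 370.9 to 496.4 CPM in the other 13 pups, while its summed striatal markers reached 1588 CPM against 150.2 to 668.5 CPM in the others. Its summed choroid plexus markers, at 4877 CPM, were also the highest. The main values below include this pup, and values without it are given for the results named with it.

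No gene passed the test. With edgeR's quasi-likelihood test, 0 of 16992 genes (0.0%) had an adjusted p under 0.05 between BPA5 and control XX pups. At an unadjusted p under 0.05 there were 694 genes (4.08%), of which 338 (1.99%) were higher and 356 (2.1%) lower in BPA5 pups. At an unadjusted p under 0.01 there were 95 genes, and under 0.001 there were 6. DESeq2 called 1 gene, Avp, and had 819 at the unadjusted threshold. limma-voom called 0 and had 606. The smallest adjusted p of edgeR was 0.478, for Avp, and for every other gene it was 0.925 or more. The named genes below are thus values and orders, not calls, and they include 39 genes picked by p or by size, of which 19 were higher and 20 lower in BPA5 pups.

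The fold changes were small where the counts were high. Over all genes the median log2 fold change was -0.0012, with 8574 genes (50.5%) below 0. Of 13525 genes with a mean of at least 2 CPM, the 95% confidence interval lay inside a 2-fold change in either direction for 13294 genes (98.3%) and inside a 1.5-fold change for 12012 genes (88.8%). Of the 3467 genes under 2 CPM, 2320 (66.9%) were held inside a 2-fold change. Low genes, such as Avp, Oxt and Otp, therefore had the widest intervals. The p-values measure the spread between pups.

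**Figure D1:**
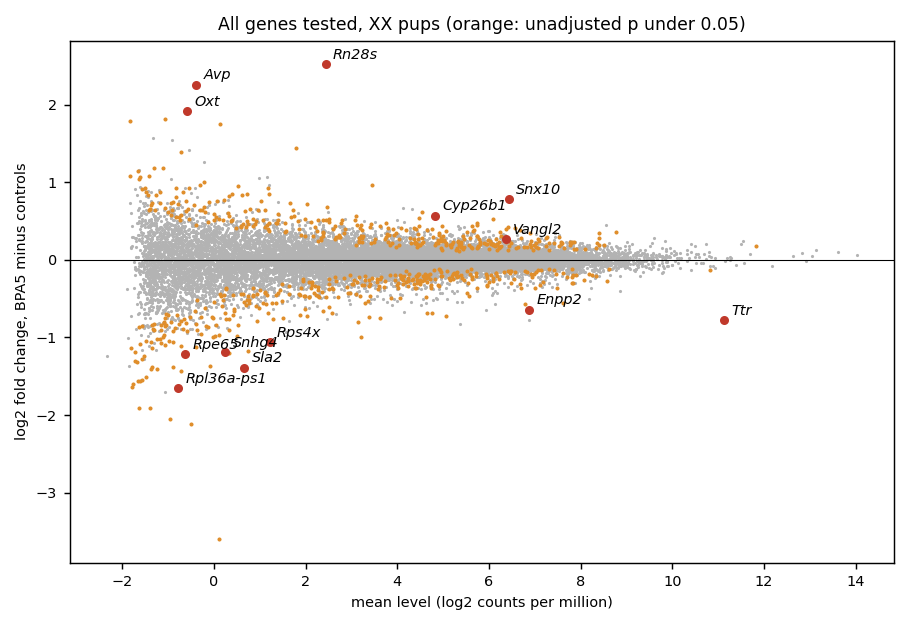
Log2 fold change (BPA5 minus control XX pups, vertical axis) against mean log2 CPM (horizontal axis) for the 16992 genes tested, with the 694 genes at an unadjusted p under 0.05 in orange. Red points name 13 genes of the text. The spread narrows from low to high genes, and Rn28s (2.52), Avp (2.25) and Oxt (1.91) lie highest.

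The hypothalamic neuropeptides Avp and Oxt, and the transcription factor Otp, which specifies the neurons that make them, had high values in BPA5 pups. Avp (arginine vasopressin) was at 6.46, 1.37, 0.943 and 0.578 CPM in pups 79-4x, 81-6x, 85-4x and 91-9x, and at 0.195 to 0.839 CPM (median 0.492) in the 10 controls. Pup 79-4x lay far above all others, 81-6x and 85-4x lay just above the highest control, and 91-9x fell among the controls. The log2 fold change was 2.25 (SE 0.44, 4.77-fold), with an adjusted p of 0.478 by edgeR and 0.0145 by DESeq2. Without pup 79-4x it was 1.06, with an unadjusted p of 0.00555 and an adjusted p of 1.0 by edgeR. The counts behind these levels were 10 to 87 in BPA5 pups and 3 to 28 in controls.

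Oxt (oxytocin) stood at 2.598, 1.76, 2.21 and 0.231 CPM in the 4 BPA5 pups and at 0.0 to 1.80 CPM (median 0.158) in controls. The groups overlapped in 2 BPA5 pups, 81-6x and 91-9x, and the log2 fold change was 1.91 (SE 0.68, unadjusted p = 0.01 by edgeR). Otp stood at 0.965, 0.548, 0.553 and 0.173 CPM, against 0.0 to 0.480 CPM (median 0.0933), with a log2 fold change of 1.79 (unadjusted p = 0.0203 by edgeR). All BPA5 pups but 1 lay above every control for Otp, and pup 91-9x was again within the control range. Sim1, a further transcription factor of these neurons, had a log2 fold change of 1.15 (unadjusted p = 0.0603 by edgeR).

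These genes belong to a list of 14 hypothalamic markers, of which 9 were tested: 6 were higher, 3 lower, and 3 (Avp, Oxt, Otp) had an unadjusted p under 0.05. Over all genes 1.99% were higher at that threshold. The median log2 fold change of the 9 was 0.92, and 0.65 without pup 79-4x. Summed over the list, the level was 22.3, 11.2, 13.7 and 5.90 CPM in the 4 BPA5 pups and 2.85 to 31.0 CPM in controls. The order of the peptides was not shared over the list, since Pmch (melanin-concentrating hormone), Pomc and Hcrt (orexin) had log2 fold changes of -0.22, -0.15 and -0.08. Pmch alone was at 20.7 CPM in the highest control. Agrp, Nr5a1, Hmx2, Hmx3 and Rax were too low to test. In bulk tissue, more cells of a type and more RNA per cell cannot be told apart, and the share of hypothalamic tissue in each piece was not tested.

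The promoter windows of the neuropeptide pair, Avp and Oxt, are shown because these genes led the list and lie close together on chromosome 3. Both come from RefSeq (build GRCr8, whereas the count files used Rnor_6.0) and run from 250 bases before to 50 bases after the annotated start. Avp is on the minus strand at chr3:138248473-138248772 and Oxt on the plus strand at chr3:138235504-138235803. Capitals mark the E-box CACGTG in Avp, and in Oxt the oestrogen response half-site AGGTCA or its reverse complement.
Avp: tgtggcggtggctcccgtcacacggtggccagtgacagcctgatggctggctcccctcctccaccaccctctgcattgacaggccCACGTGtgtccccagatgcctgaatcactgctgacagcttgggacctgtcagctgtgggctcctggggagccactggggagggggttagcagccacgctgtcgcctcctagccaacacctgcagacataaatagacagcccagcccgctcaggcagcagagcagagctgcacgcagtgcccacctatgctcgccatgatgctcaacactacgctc
Oxt: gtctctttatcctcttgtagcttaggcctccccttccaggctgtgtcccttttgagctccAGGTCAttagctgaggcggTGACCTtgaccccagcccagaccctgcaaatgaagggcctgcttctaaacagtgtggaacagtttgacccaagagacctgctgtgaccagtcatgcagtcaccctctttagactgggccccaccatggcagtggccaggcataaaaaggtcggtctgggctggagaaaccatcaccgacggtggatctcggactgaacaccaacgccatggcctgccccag
The Avp window held 1 CACGTG, a letter string found in 2148 of 33469 promoter windows (6.42%). The Oxt window held 2 half-sites, one on each strand, a string present in 5415 windows (16.2%). Neither window held the full palindromic oestrogen response element, found in 9 windows (0.0269%) when both strands were searched. These are matches of letters only.

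Among genes of at least 2 CPM, the leading higher genes had smaller SEs than Avp and Oxt, though the pups of some of them fell into separate sets. Vangl2, a membrane protein of planar cell polarity, was at 100.3, 88.1, 87.2 and 85.7 CPM in BPA5 pups and at 64.5 to 88.7 CPM (median 76.7) in controls. All BPA5 pups exceeded 9 of 10 controls, and the log2 fold change was 0.27 (SE 0.07, unadjusted p = 0.00148 by edgeR). Snx10, a sorting nexin of endosomes, was at 124.6, 124.7, 117.3 and 113.6 CPM against 55.8 to 119.7 CPM (median 59.9). Its controls fell apart, with N3-1x at 119.7 CPM and 8-2x at 109.1 CPM and the other 8 at 66.3 CPM or less, and the log2 fold change was 0.78 (SE 0.22, unadjusted p = 0.00163 by edgeR). Cyp26b1, which degrades retinoic acid, was at 35.8, 33.4, 47.0 and 29.4 CPM against 16.8 to 30.8 CPM (median 26.4). Only 1 control exceeded the lowest BPA5 pup for Cyp26b1, and the log2 fold change was 0.57 (SE 0.18, unadjusted p = 0.00408 by edgeR).

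Of the remaining higher genes, Hpcal1, a neuronal calcium sensor, was at 65.7, 57.8, 64.4 and 51.5 CPM against 31.8 to 62.3 CPM (median 44.0), with a log2 fold change of 0.43. Kcnn3, a small-conductance calcium-activated potassium channel, had a log2 fold change of 0.52, with pups 79-4x and 85-4x at 10.2 and 11.6 CPM above the highest control at 9.02 CPM and the other 2 pups inside the control range. Trhr, the receptor of thyrotropin-releasing hormone, was at 4.16, 1.68, 3.06 and 1.21 CPM against 0.852 to 2.34 CPM, with a log2 fold change of 0.84 (SE 0.30), and of 0.52 without pup 79-4x. Trhr and Kcnn3 shared the same high pair of BPA5 pups. Zim1, an imprinted zinc finger gene, followed that order too, at 7.42, 3.79, 8.56 and 3.93 CPM against 2.24 to 4.91 CPM. Cdh22, a cadherin, was at 32.7, 26.0, 25.0 and 21.4 CPM against 12.2 to 26.2 CPM (log2 fold change 0.43). Prr18, Fam196a, Uevld, Galnt3, Mxd1, Nipal3 and Fbxl7 had log2 fold changes of 0.28 to 0.64. Frat2, whose protein binds the kinase GSK3 in Wnt signalling, and Lrrc63 were below 3 CPM in every BPA5 pup, at 0.85 and 0.87.

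Of these named genes, Rn28s, an entry for 28S ribosomal RNA, had the largest positive fold. It was at 5.20, 10.0, 3.25 and 35.7 CPM in BPA5 pups and at 0.534 to 7.86 CPM (median 1.14) in controls, a log2 fold change of 2.52 (SE 0.63, unadjusted p = 0.00054 by edgeR). All BPA5 pups exceeded 8 of 10 controls, and without pup 91-9x the log2 fold change of Rn28s was 1.39. Ribosomal RNA carries little or no poly-A and reaches a poly-A library as carry-over. The level ran from 0.0 to 0.324 CPM in BPA5 males and from 0.058 to 0.285 CPM in control males. Female pups of dams given a polychlorinated biphenyl mixture (Aro5) or chlorpyrifos (CPF3) at the high dose also lay above the control median. They ran from 1.69 to 12.24 CPM (median 2.955) and from 2.584 to 14.43 CPM (median 4.125). Against the same controls their log2 fold changes were 1.03 and 1.39, so higher Rn28s was not confined to BPA5 females.

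**Figure D2:**
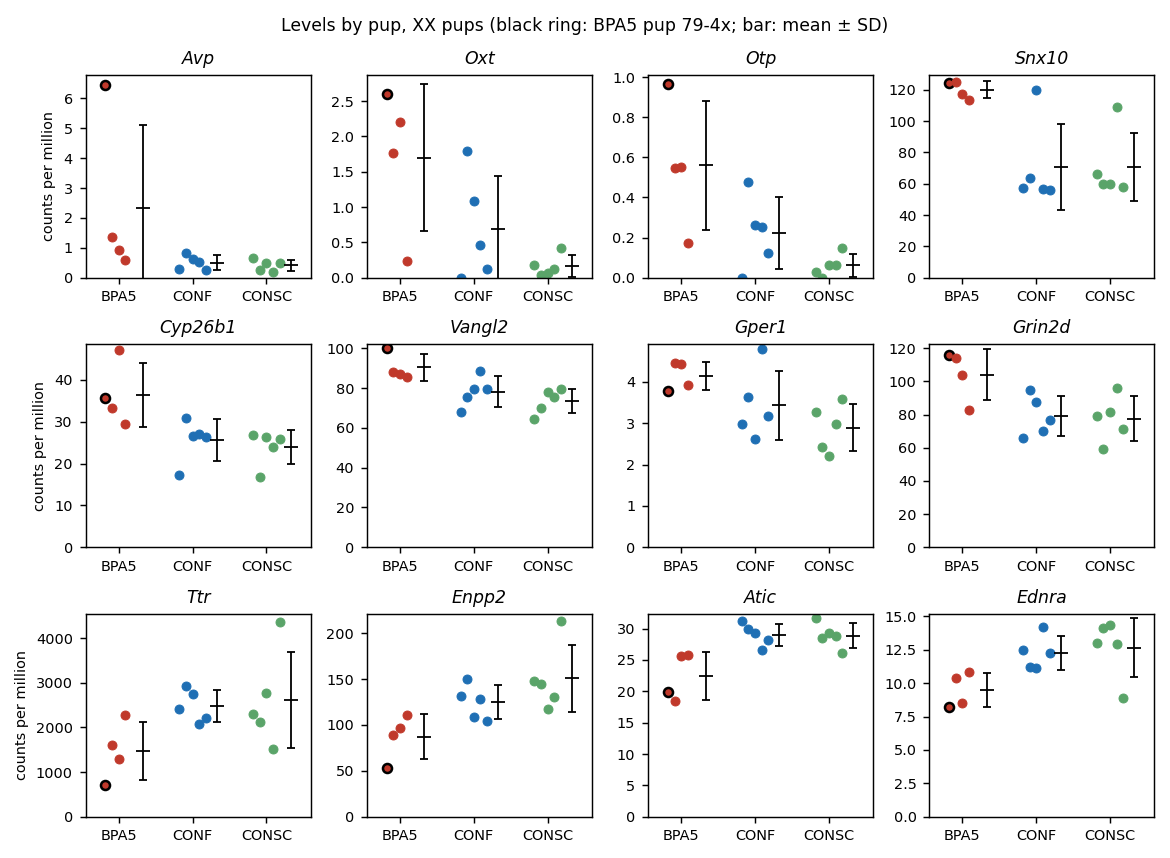
CPM of 12 named genes by pup (vertical axes, linear from 0) in BPA5, CONF and CONSC XX pups, with bars for the mean ± SD (cut at 0) and a black ring on BPA5 pup 79-4x. Pup 79-4x was highest for Avp, Oxt, Otp, Vangl2 and Grin2d and lowest for Ttr, Enpp2 and Ednra, whereas the 4 BPA5 pups lay close together for Snx10 and Gper1.

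Among the leading lower genes, Atic, a bifunctional enzyme of purine synthesis, was at 19.8, 18.4, 25.6 and 25.8 CPM in BPA5 pups and at 26.1 to 31.7 CPM (median 29.1) in controls. The groups did not overlap, and the log2 fold change was -0.36 (SE 0.10, unadjusted p = 0.00162 by edgeR). Groups that did not overlap were found for 21 of 16992 genes (0.124%), 7 higher and 14 lower, and nothing is read from Atic being among them, since it was picked by p on this contrast. Ednra, the endothelin receptor type A of vascular muscle, was at 8.24, 10.4, 8.52 and 10.8 CPM against 8.86 to 14.4 CPM (median 12.7). Its one low control was the pup that stood apart, CONSC 9-1x, and the log2 fold change went from -0.38 (unadjusted p = 0.00272 by edgeR) to -0.43 without it. Apln, the precursor of the apelin peptide, was at 13.0, 14.98, 15.6 and 16.8 CPM against 16.4 to 21.7 CPM (median 18.2), with a log2 fold change of -0.28 (unadjusted p = 0.00285 by edgeR). Apln overlapped only through pup 91-9x.

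Sla2, an adaptor that dampens antigen receptor signalling in lymphocytes, had the smallest p among the named lower genes. It was at 0.445, 0.587, 0.553 and 1.04 CPM against 0.868 to 2.71 CPM (median 1.77), a log2 fold change of -1.39 (SE 0.32, unadjusted p = 0.000217 by edgeR). Pup 91-9x alone reached the control range. Rpe65, the retinoid isomerase, and Slc22a2, an organic cation transporter, were below 1 CPM in every pup, at log2 fold changes of -1.21 and -1.38. The pseudogene Rpl36a-ps1, at -1.65, was the other gene of this set whose groups did not overlap, and it can share reads with its parent gene. Acss1, the mitochondrial acetyl-CoA synthetase, and Prim1, the catalytic primase subunit, had log2 fold changes of -0.32 and -0.34. Fhl2, Ccdc80, Npepo, Pcdhb19 and Col9a3 ran from -0.42 to -0.23, and for Col9a3 pups 79-4x to 91-9x stood at 26.9, 36.5, 37.4 and 49.7 CPM against 43.8 to 62.0 CPM.

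Markers of the choroid plexus, the secretory epithelium that makes cerebrospinal fluid, were lower in BPA5 pups in 12 of 12 tested members, 4 of them at an unadjusted p under 0.05. Over all genes 50.5% were lower and 2.1% were lower at that threshold. Ttr (transthyretin, the thyroxine carrier) was at 722, 1609, 1287 and 2285 CPM against 1518 to 4369 CPM (median 2363), with a log2 fold change of -0.78 (SE 0.33, unadjusted p = 0.0266 by edgeR). Enpp2 (autotaxin, which makes lysophosphatidic acid) was at 53.0, 89.0, 96.7 and 110.8 CPM against 104.6 to 213.3 CPM (median 131.2), with a log2 fold change of -0.64 (SE 0.21, unadjusted p = 0.00457 by edgeR). For both, pup 79-4x was lowest of all 14 pups and pup 91-9x lay within the controls, as did 81-6x for Ttr. Folr1, the folate receptor, was at 9.35, 18.9, 18.3 and 23.5 CPM against 15.7 to 46.7 CPM. F5 (coagulation factor V) was at 4.82, 7.12, 9.99 and 8.79 CPM against 8.96 to 15.2 CPM. Their log2 fold changes were -0.69 and -0.56. Kl, Clic6, Kcnj13, Aqp1 and Sostdc1 ran from -0.58 to -0.51 without reaching an unadjusted p under 0.05, and Otx2 was too low to test.

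The median over the 12 markers was -0.56, where the median of all genes was -0.0012. Summed over the list, the levels were 850, 1836, 1531 and 2587 CPM in BPA5 pups against 1786 to 4877 CPM (median 2704) in controls, and without Ttr they were 128 to 302 CPM against 268 to 508 CPM. Without pup 79-4x the median was -0.36 and 2 members had an unadjusted p under 0.05. Without CONSC 9-1x it was -0.52 and 4 did. Without pup 91-9x it was -0.73 and 7 did. All 12 members stayed lower in each of these. No member had an adjusted p under 0.05, and how much choroid plexus each dissected piece held was not tested. Lists of meninges and pericytes (9 of 10 lower, median -0.17) and of blood (6 of 7 lower, median -0.07, with Hbb at -0.55) were nearer to 0.

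The control libraries themselves came in a pair of sets that their names mark. In form A the group code is followed by a low dash (5 XX control libraries), and in form B it is not (6 libraries). A library named N4-3x occurs in each form. Between form B and form A, 237 of 16577 genes (1.43%) had an adjusted p under 0.05 by edgeR, 91 higher and 146 lower in form B. On these 237 genes, 82.7 to 90.3% in each BPA5 library lay nearer to form B, although the BPA5 names, as those of every treated library, carry the low dash. The share was 0.844 to 26.6% in form A controls and 92.4 to 99.2% in form B controls. The 237 genes were picked for separating these same control libraries, so the control shares were largely fixed in advance. For the name N4-3x the share was 26.6% in the form A library and 94.1% in the form B library. The labels give both libraries the same pup name but different times of day. Whether they come from the same pup was not tested.

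The choice of control libraries moved several leading genes. Against form A controls alone, 43 genes passed an adjusted p of 0.05 by edgeR (12 higher, 31 lower). Of these, 22 had placeholder symbols and 5 had a symbol pattern of pseudogenes or ribosomal protein genes. Rplp1, a further ribosomal protein gene outside that pattern, was also among them, at -0.66. Against form B controls alone 0 passed, with 623 at an unadjusted p under 0.05, and 3 of the 43 were among genes at that unadjusted threshold. Rps4x, an entry for a ribosomal protein of the small subunit, was at 1.48, 1.49, 1.37 and 1.27 CPM in BPA5 pups and 0.974 to 5.01 CPM in controls. Its log2 fold change was -1.06 against all controls, -1.65 against form A and -0.07 against form B. Snhg4, a host gene of small nucleolar RNAs, went from -1.70 against form A to -0.35 against form B, Hmgb1-ps4 from -1.17 to -0.17, Rps10l1 from -1.03 to -0.29 and Prim1 from -0.50 to -0.17. Rn28s went from 4.09 to 1.85. Avp (1.96 and 2.66), Cyp26b1 (0.58 and 0.53), Vangl2 (0.30 and 0.19) and Enpp2 (-0.81 and -0.46) kept their direction. What the name forms stand for is not given in the sources used here.

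**Figure D3:**
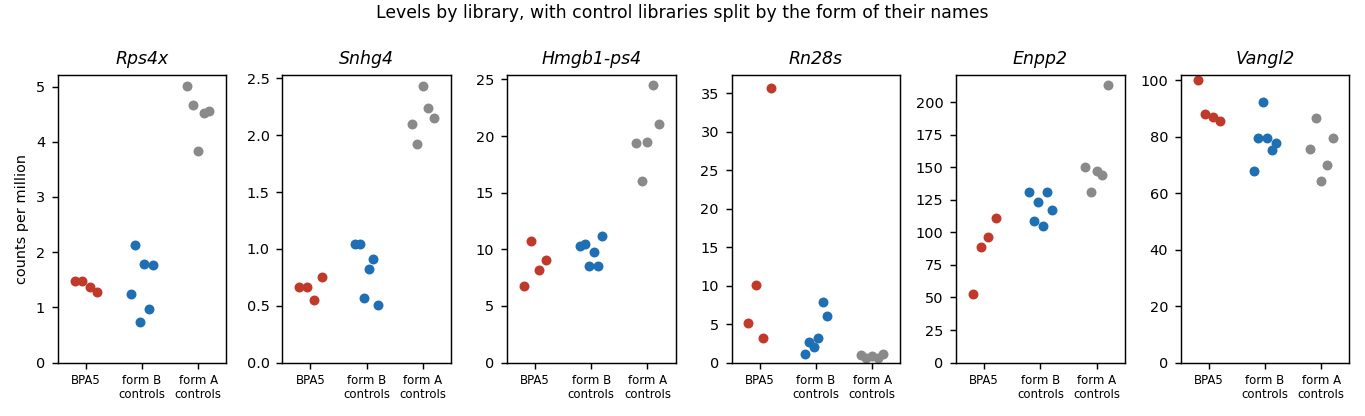
CPM by library (vertical axes, linear from 0) for 6 named genes in BPA5 libraries, form B controls and form A controls. For Rps4x, Snhg4 and Hmgb1-ps4 the BPA5 libraries lie at the level of form B and below form A, while for Vangl2 the control forms overlap.

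Receptors of oestrogen and other steroids, the oestrogen-related receptors and their coactivators differed little. Of 14 receptors and coactivators, 12 were tested, of which 9 were higher and 3 lower, with a median log2 fold change of 0.17. Gper1, the membrane oestrogen receptor, was the member with an unadjusted p under 0.05. It was at 3.79, 4.46, 4.42 and 3.93 CPM in BPA5 pups and 2.21 to 4.79 CPM (median 3.08) in controls, with a log2 fold change of 0.40 (95% confidence interval 0.10 to 0.69, unadjusted p = 0.0118 by edgeR). All BPA5 pups exceeded 9 of 10 controls for Gper1. Esr1 (oestrogen receptor alpha) was at 5.42, 4.58, 7.19 and 6.42 CPM against 3.204 to 6.599 CPM (median 5.15), a log2 fold change of 0.22 with an interval of -0.17 to 0.61, which leaves out a 2-fold change. Esrrg, the oestrogen-related receptor gamma, was at 0.31 (unadjusted p = 0.067 by edgeR) and Esrrb at 0.41 (unadjusted p = 0.353). Pgr, Nr3c2, Nr3c1 and Esrra, the receptors of progesterone, mineralocorticoids and glucocorticoids and the related receptor alpha, ran from -0.05 to 0.14. Esr2 (4 to 16 counts in BPA5 pups, 0 to 12 in controls) was too low to test. Against form B controls alone the median of the list was 0.04.

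Sox, Pou and Gli3 genes, transcription factors of neural progenitors and young neurons, were higher in 9 of 11 members, with a median of 0.11. Sox11 was at 23.2, 21.8, 25.4 and 26.8 CPM against 12.3 to 25.7 CPM (median 16.9), with a log2 fold change of 0.41 (95% confidence interval 0.01 to 0.80, unadjusted p = 0.0446 by edgeR). It was the member of this list with the smallest p, and without CONSC 9-1x its p was 0.0682 at a log2 fold change of 0.35. Sox6 was at 17.3, 12.0, 26.1 and 17.98 CPM against 11.4 to 22.6 CPM, a log2 fold change of 0.18 with an interval of -0.21 to 0.57. Pou2f2, Sox17, Pou2f1, Sox2, Gli3, Sox4, Pou3f2, Sox5 and Pou3f3 ran from -0.08 to 0.26, with Pou3f2 at 0.02 and at -0.05 without CONSC 9-1x. The count depended on the control libraries, with 11 of 11 members higher against form A and 5 of 11 against form B.

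Signalling genes of neural development (Nrg1, Erbb4, Epha4, Efnb2, Fzd3, Notch2, Tcf7l2) had 7 of 8 tested entries higher, a median of 0.16, and 0 entries at an unadjusted p under 0.05. The median was -0.04 against form B controls, with 4 of 8 higher, 0.28 against form A controls, -0.04 against feeding controls and -0.02 without BPA5 85-4x. Nrg1 (neuregulin) was nearest, at 0.25 with an interval of -0.01 to 0.51, while its receptor Erbb4 was at 0.06, and at -0.03 without CONSC 9-1x. Interneuron markers had 7 of 11 tested members higher and 0 at an unadjusted p under 0.05. Sst (somatostatin) was at 0.15 with an interval of -0.01 to 0.31. Pvalb, the parvalbumin of fast-spiking cells, was at 7.64, 10.6, 9.82 and 5.44 CPM against 2.49 to 12.8 CPM, a log2 fold change of 0.24 with a wide interval of -0.45 to 0.93. The GABA-synthesising enzymes Gad1 and Gad2 were at 0.08 and 0.20, and Reln, Nos1, Vip and Htr3a from -0.13 to -0.01. Without CONSC 9-1x, Htr3a turned from -0.13 to 0.13 and Gad1 was at 0.23, and without BPA5 85-4x the median of the list was -0.0043, against 0.09 with all pups. Npy was not tested, with 1 count in all pups together.

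**Figure D4:**
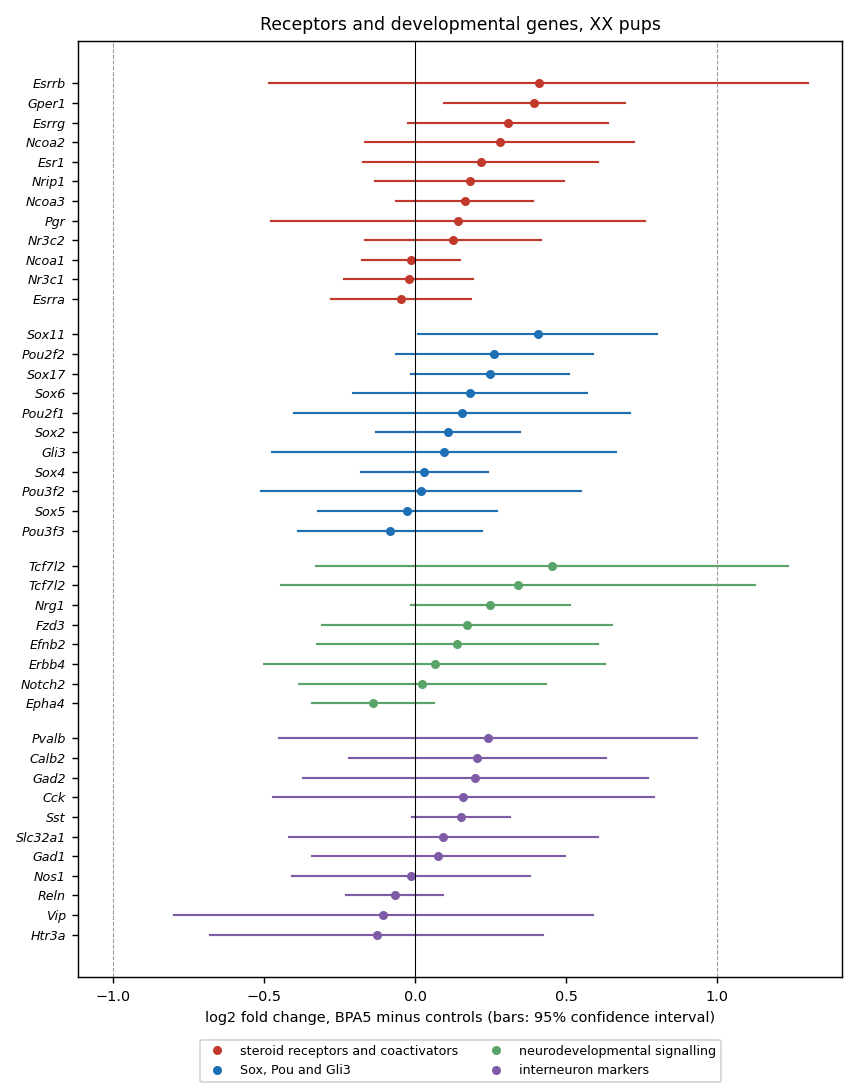
Log2 fold change (BPA5 minus control XX pups, horizontal axis) with its 95% confidence interval for receptors, Sox, Pou and Gli3 genes, signalling genes and interneuron markers. Dashed lines mark a 2-fold change. Only the intervals of Gper1 (0.10 to 0.69) and Sox11 (0.01 to 0.80) leave out 0, and the intervals of Esrrb and both Tcf7l2 entries reach past a 2-fold change.

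The ratio of KCC2 (Slc12a5) to NKCC1 (Slc12a2), which follows the maturation of GABA signalling, was 5.25 ± 0.721 (SD, n = 4) in BPA5 pups and 4.35 ± 0.753 (SD, n = 10) in controls. It ran from 4.42 to 6.16 against 3.45 to 5.66, a difference of 0.28 on the log2 scale (2-sided exact permutation p = 0.0649, smallest possible 0.000999). The difference came to 0.36 with p = 0.0490 without pup 91-9x and to 0.33 with p = 0.0266 without CONSC 8-2x, both by the same exact permutation test. These are named because they passed 0.05, and the range over all pups left out is given further below. Leaving out single controls was chosen after seeing the data. Slc12a5 was at 338.5, 274.5, 300.7 and 247.8 CPM against 199.8 to 302.9 CPM (log2 fold change 0.22) and Slc12a2 was at -0.07. The ratio of Esr1 to Esr2 was 17.9 ± 3.66 (SD, n = 4) against 36.2 ± 42.5 (SD, n = 10), with a 2-sided exact permutation p of 0.374, and its error comes from the few counts of Esr2.

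Synaptic receptor genes had mostly positive values. Of 22 glutamate receptor genes, 20 were higher in BPA5 pups, with a median of 0.15, and 4 had an unadjusted p under 0.05, where 1.99% of all genes were higher at that threshold. Grin2d, an NMDA receptor subunit of interneurons and early development, was at 116.1, 113.9, 103.9 and 82.5 CPM against 59.1 to 96.0 CPM (median 78.0), with a log2 fold change of 0.43 (SE 0.15, unadjusted p = 0.0102 by edgeR). All BPA5 pups but 91-9x lay above every control for Grin2d. The metabotropic receptor Grm8 was at 0.44 and the kainate receptor subunit Grik2 at 0.28. For Grm8, pup 79-4x was at 18.6 CPM and the other 3 BPA5 pups, at 7.46 to 10.1 CPM, lay within the control range of 6.57 to 10.7 CPM. Without pup 79-4x the median of the list was 0.085, 16 of 22 members were higher and 1 had an unadjusted p under 0.05. Against form B controls alone 14 of 22 were higher.

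The GABA-A receptor and chloride transporter genes had 11 of 14 members higher and a median of 0.14. Of these, Gabrb1 at 0.30 and Gabra2 at 0.26 were below an unadjusted p of 0.05, where 1.99% of all genes were higher at that threshold. Without pup 79-4x the median of the list was 0.02 and 0 members were at that threshold. Synaptic adhesion genes had 13 of 14 higher and a median of 0.15, which was 0.07 with 11 of 14 higher without pup 79-4x and 0.03 with 9 of 14 higher against form B controls. Cadm1, a synaptic adhesion molecule, was at 111.0, 67.0, 103.2 and 71.2 CPM against 53.6 to 96.8 CPM (log2 fold change 0.35, unadjusted p = 0.00901 by edgeR). Pups 79-4x and 85-4x were above every control, and the other 2 were near the control median of 68.7 CPM. Presynaptic release genes (13 of 16 higher) and postsynaptic scaffold genes (11 of 16) both had a median of 0.08 and 0 members at an unadjusted p under 0.05. Against form B controls their medians turned to -0.0078 (7 of 16 higher) and -0.08 (4 of 16 higher). Thalamic markers were higher in the same pup: their sum was 1455, 1011, 856 and 701 CPM in the 4 BPA5 pups against 510 to 1270 CPM, and the list median of 0.32 was 0.05 without pup 79-4x. Their part in the synaptic values was not tested.

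Ribosomal protein genes and nuclear genes of oxidative phosphorylation leaned the other way. Of 71 ribosomal protein genes 63 were lower, with a median of -0.15 and 8 at an unadjusted p under 0.05. Of 75 oxidative phosphorylation genes 66 were lower, with a median of -0.08 and 8 at that threshold. Over all genes 50.5% were lower and 2.1% were lower at that threshold. Both lists moved with the control libraries. Against form A controls the ribosomal median was -0.23 with 35 members at an unadjusted p under 0.05, and against form B it was -0.02 with 0. For oxidative phosphorylation the median was -0.13 with 27 members against form A and -0.01 with 2 against form B. The injection controls gave a ribosomal median of -0.25 and the feeding controls -0.05. Single pups moved the counts too: 1 ribosomal member had an unadjusted p under 0.05 without BPA5 85-4x, 2 without 79-4x, 3 without CONSC 9-1x (median -0.09) and 15 without 81-6x. For oxidative phosphorylation the count was 0 without 85-4x (median -0.05), 3 without 79-4x, 3 without 91-9x and 14 without 81-6x.

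Among 17 genes known to respond to oestrogen, 12 were higher (median 0.08), with Avp, Cited2 (0.22) and Oxtr, the oxytocin receptor (0.39), at an unadjusted p under 0.05. Over all genes 1.99% were higher at that threshold. Without pup 79-4x, 1 member of this list was higher at that threshold, with a list median of 0.10. Cited2 was then at 0.18 and Oxtr at 0.25. Against form B controls, 1 member was higher and 1 lower at the threshold, with a median of 0.06. Avp is also counted among the hypothalamic markers. Oxtr was at 10.9, 7.63, 9.37 and 6.53 CPM against 3.89 to 10.0 CPM, so that the groups overlapped. Galr1, a receptor of the peptide galanin, had a log2 fold change of 0.93 at 0.520 to 1.43 CPM in BPA5 pups and 0.178 to 0.909 CPM in controls. Neurog2, a proneural transcription factor, was at 0.816, 1.33, 1.30 and 0.925 CPM against 0.240 to 0.899 CPM (log2 fold change 0.96, unadjusted p = 0.0137 by edgeR), and 3 of the 4 BPA5 pups exceeded every control. DNA methylation genes were higher in 11 of 12 members (median 0.08) against all controls and in 6 of 12 against form B controls, with the de novo methyltransferase Dnmt3a at 0.19 (unadjusted p = 0.0325 by edgeR). Pdk4, a glucocorticoid-induced kinase that restrains pyruvate use, was at 1.04, 1.29, 1.46 and 1.21 CPM against 1.38 to 2.59 CPM (log2 fold change -0.52), and Tspo, the cholesterol-binding protein of the outer mitochondrial membrane, was at -0.56.

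Of 40 lists, 26 had a median within 0.1 of 0, and none held a gene with an adjusted p under 0.05. Clock genes (median -0.09), immediate early genes (-0.05), thyroid hormone genes (-0.04), cell cycle genes (-0.0079), cholesterol synthesis genes (0.02), axon guidance genes (0.05), microglial markers (-0.05), endothelial markers (-0.07), and markers of CA1 (-0.14), CA3 and CA2 (0.03) and the dentate gyrus (0.01) had 0 members at an unadjusted p under 0.05. Oligodendrocyte markers were lower in 14 of 16 members (median -0.13, and -0.02 without pup 79-4x). Striatal markers were lower in 9 of 11 with a median of -0.39, which was -0.00045 without CONSC 9-1x. The CA1 median was 0.03 without that pup and 0.21 against form A controls.

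**Figure D5:**
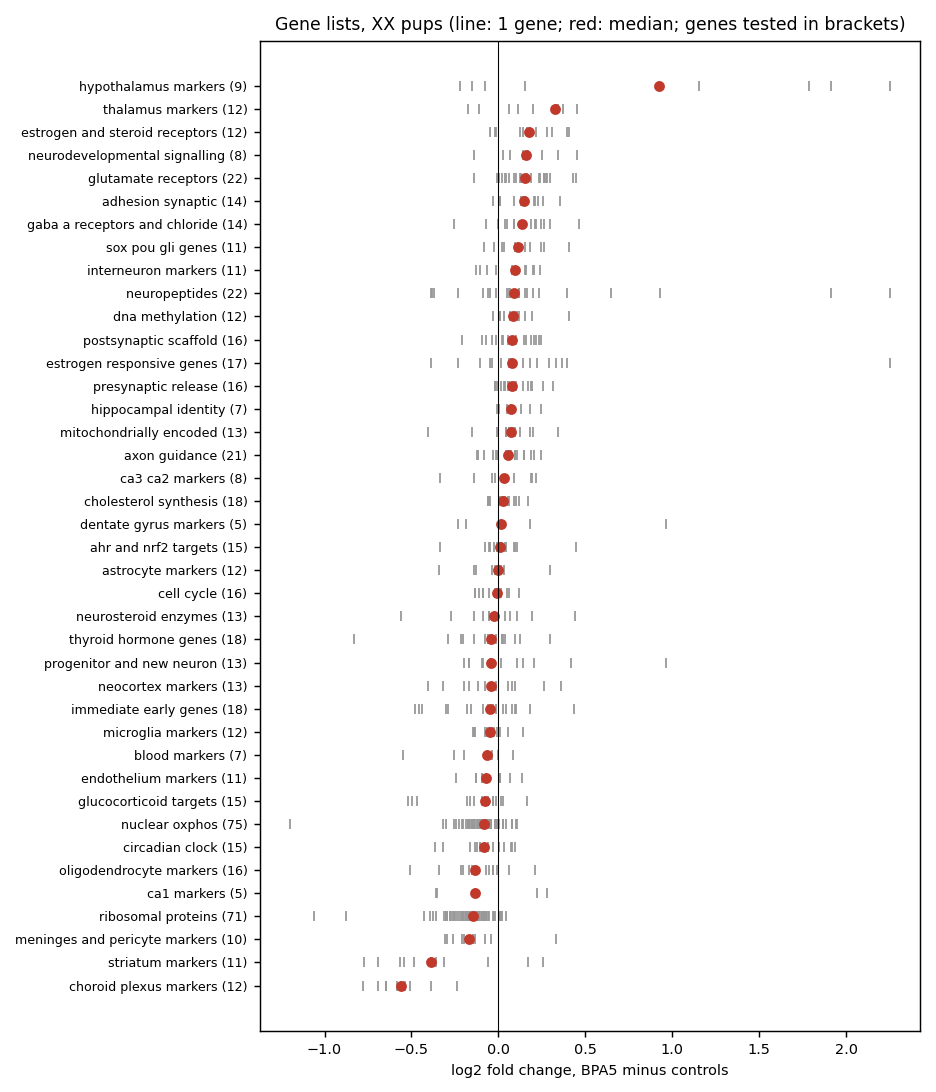
Log2 fold change (BPA5 minus control XX pups, horizontal axis) of every tested member of the 40 lists, with 1 line per gene and the median in red, ordered by median. Hypothalamic markers (0.92) and choroid plexus markers (-0.56) lie at the ends, and 26 lists have a median within 0.1 of 0.

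The BPA5 pups were also set directly against XX pups of the other high-dose groups. These were Aroclor 1254 (Aro5, a polychlorinated biphenyl mixture, 5 pups) and chlorpyrifos (CPF3, an organophosphate insecticide, 4 pups). Aro5 pups 115-13x and 115-7x shared litter 115 and were fitted as separate pups. By edgeR 0 genes passed an adjusted p of 0.05 in either, with 376 (Aro5) and 1413 (CPF3) at an unadjusted p under 0.05, and DESeq2 gave 0 in both, with 443 and 1552. Avp was higher in BPA5 than in Aro5 pups by 2.17 and than in CPF3 pups by 2.42 on the log2 scale (unadjusted p = 0.000393 and 0.000376 by edgeR). Sla2 was lower by 1.64 on the log2 scale than in Aro5 pups (unadjusted p = 8.14e-05 by edgeR), and Apln by 0.33 and 0.36 than in Aro5 and CPF3 pups. Set against the same controls, which all 3 comparisons share, Vangl2 had log2 fold changes of 0.27 in BPA5, 0.20 in Aro5 and 0.23 in CPF3 pups, and Pcdhb19 -0.25, -0.37 and -0.34. Snx10 had 0.78 in BPA5, 0.04 in Aro5 and 0.67 in CPF3 pups. The choroid plexus median was -0.34 in Aro5 and 0.02 in CPF3 pups.

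In BPA5 males (7 pups, set against 9 control males), Avp had a log2 fold change of 1.94 (unadjusted p = 0.0349 by edgeR) and ran from 0.0811 to 3.57 CPM. High Avp was not confined to bisphenol A. It reached 8.97 CPM among CPF3 males (median 0.179), and ran from 0.161 to 1.94 CPM (median 1.125) in 4 males of the lower chlorpyrifos dose. Aroclor males of either dose stayed at 0.324 CPM or less, and males of the lower bisphenol A dose at 0.156 CPM or less. The interaction of sex and treatment for Avp was 0.32 (unadjusted p = 0.809 by edgeR). Apln had -0.43 in males (unadjusted p = 2.16e-05 by edgeR) and Sox11 0.44. Snx10 had -0.44 and Cyp26b1 -0.20, with interactions of 1.23 (unadjusted p = 0.00249) and 0.77 (unadjusted p = 0.00819) by edgeR, neither past the adjusted threshold. Pou3f2 had 0.78 in males (unadjusted p = 0.00145 by edgeR) and 0.02 in females. The female value of Pou3f2 was 0.46 against form A controls and -0.32 against form B controls. Its interaction did not pass the adjusted threshold. The choroid plexus median was -0.19 in males.

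Over 17282 genes, 7 (0.0405%) had an adjusted p under 0.05 for the interaction by edgeR, and 482 (2.79%) an unadjusted p under 0.05. All but 1 of the 7 were entries with placeholder symbols, and that 1 was a pseudogene, Ybx1-ps4. No call was left when the fit held only BPA5 and control pups, where 0 genes passed and 734 had an unadjusted p under 0.05. Control libraries of males were of form A in 9 of 10 cases, and those of females in 5 of 11. With form A controls alone in both sexes, a fit chosen after seeing the data, 64 genes passed (9 higher, 55 lower), with 757 at an unadjusted p under 0.05.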

How the data were processed

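Poly-A RNA libraries (stranded kit) of single pups were sequenced as single-end reads. Per the labels the instrument was a NovaSeq, whereas the study's methods name a HiSeq. The authors aligned reads to Rnor_6.0 with STAR and counted reads per gene with featureCounts, and the deposited values are raw counts per gene and library. kallisto is also named in the submitters' processing notes. Versions are not given in the sources used here.

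Here, CPM is counts per 1000000 counts of the library total. Differences were fitted with edgeR 4.0.16 (TMM, default filter by group, quasi-likelihood F test, Benjamini-Hochberg adjustment over all genes) on 23 XX pups, and the interaction on 52 pups of both sexes. The threshold was an adjusted p of 0.05. DESeq2 1.42.0 and limma 3.58.1 (voom) were alternatives, run with R 4.3.3. Scripts were tested on simulated data. The other alternatives were no filter, a strict filter, single control sets and name forms, a time-of-day window and leaving out each pup.

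Genes were named where DESeq2 or edgeR gave an adjusted p under 0.05; as the 15 higher and 15 lower genes of smallest p with a mean of at least 2 CPM and a proper symbol; as the 5 higher and 5 lower of largest fold with p under 0.01; as all members of 4 lists (receptors, Sox, Pou and Gli3, signalling, interneurons); as members of other lists with p under 0.05; and by the interaction. Genes and lists were chosen with earlier results of these data known. Promoter windows were matched by symbol for both genes shown. Genes with near-identical copies and overlapping genes are uncertain in their counts. The 2 libraries of N4-3x differed by more than counting noise and were summed as 1 pup. Some members of the lists are counted but not reported here by name.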

Additional observations from a re-analysis of the deposited data

Results flagged for a closer look

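In 3 cases a single pup lay far from the rest of its group, among the 78 groups of values tested, where chance alone gives about 1 in 20. For Vangl2, BPA5 pup 79-4x was at 100.3 CPM, with the other BPA5 pups at 85.7 to 88.1 CPM. For Enpp2, control pup CONSC 9-1x was at 213.3 CPM, and for Ednra the same pup was at 8.86 CPM, the lowest control. Without CONSC 9-1x the log2 fold change of Enpp2 was -0.56 (unadjusted p = 0.0073 by edgeR).

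For 7 genes the difference between BPA5 and controls was not the same in females and males by the interaction of edgeR, given as females minus males on the log2 scale. LOC103694855 had -4.51 (adjusted p = 0.0123), with a mean of 2.28 CPM in BPA5 males and 0.405 CPM in control males. LOC100360843 had -4.49 (adjusted p = 0.0140) and Ybx1-ps4 4.35 (adjusted p = 0.0123), the latter at 0.0796 CPM in BPA5 males and 1.76 CPM in control males. LOC679963 had -2.39 (adjusted p = 0.0123), LOC100362339 -2.21 (adjusted p = 0.0290), LOC688682 -1.82 (adjusted p = 0.0235) and LOC102551813 -1.69 (adjusted p = 0.0123). These entries were mostly below 3 CPM, and the same calls were absent when only BPA5 and control pups entered the fit.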

How the results depend on the processing

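The count of genes past the adjusted threshold in BPA5 females was 0 in edgeR, 1 in DESeq2 and 43 against form A controls, and 0 to 0 when each pup was left out in turn. The count at an unadjusted p under 0.05 was 694, and it moved to 1132 without a filter, 390 against feeding controls, 1255 against injection controls, 1928 against form A controls and 338 inside the time window (10.30 to 13.20 on the clock). The window left out BPA5 pup 79-4x, whose time was 10.29, so it is not separate from the fit without that pup. Leaving out each pup gave 297 (without 79-4x) to 1012 (without 91-9x), with 462 without 85-4x. For the interaction, 7 calls became 15 with DESeq2, 11 with limma-voom and litter as a replicate block, 11 with limma-voom and no block (chosen after seeing the data), 0 in the time window, 0 with only BPA5 and control pups 1 with feeding controls and 64 with form A controls in both sexes (chosen after seeing the data), and the unadjusted count became 734 with only BPA5 and control pups and 757 with form A controls. The labels give litters for pairing males with females only in part, and the litter correlation was -0.0061. The difference in the KCC2/NKCC1 ratio in females (log2) passed p = 0.05 without BPA5 91-9x (0.3627, exact permutation p = 0.0490), without CONSC 8-2x (0.3273, p = 0.0266) and with feeding controls (0.3603, p = 0.0476). It ran from 0.2033 to 0.3627 over the pups left out, and that in the Esr1/Esr2 ratio in females from -0.6811 to -0.2636. Leaving out single controls for these ratios, and lists without single pups, were chosen after seeing the data. The cause was not tested. Of 2259 values of 84 other named genes, 96 moved by more than 1 SE. Genes below 2 CPM had the widest intervals, with a median SE of 0.301 on the log2 scale.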

Other observations

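The genes of largest fold included some outside the lists, which were chosen after their values were seen. The transcription factors Gata3 and Tfap2d, both known from midbrain neurons, were high in the same BPA5 pup as Avp. Gata3 was at 5.57 CPM in pup 79-4x and at 0.743, 0.651 and 0.867 CPM in the other BPA5 pups, against 0.120 to 1.82 CPM (median 0.434) in controls, a log2 fold change of 1.74 (SE 0.67, unadjusted p = 0.0156 by edgeR). Tfap2d was at 2.38 CPM in pup 79-4x and at 0.274, 0.586 and 0.173 CPM in the others, against 0.0 to 0.510 CPM in controls. For Gata3 the 3 remaining pups lay inside the control range, and for Tfap2d 2 of them did. In the other direction, Tmem221 was at 0.0, 0.196, 0.0 and 0.116 CPM in BPA5 pups and at 0.0356 to 2.36 CPM (median 1.09) in controls, with an unadjusted p of 0.0129 by edgeR. Its BPA5 pups were all near 0, and the controls ran from that level upwards. None of these genes had an adjusted p under 0.05.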
